A study of Mus musculus with 12 samples.

Results

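How far the response to low glucose differed between 2 lines of mouse B-lineage acute lymphoblastic leukaemia (B-ALL) was measured by RNA sequencing, gene by gene. Cells of the DKO line carry the genotype Bax-/-,Bak-/-. Cells of the TKO line carry Bax-/-,Bak-/-,Mcl-1-/-. Each line was sequenced as 3 libraries after 24 h in regular medium and as 3 after 24 h in low glucose medium, and all 12 of the study's 12 libraries were used. Both lines thus share the loss of Bax and Bak, and no library has these genes intact. Each genotype is represented by what the labels give as 1 line, so the loss of Mcl1 and any other difference between the lines cannot be told apart. By its title the study concerns MCL-1 as a regulator of how far cancer cells depend on burning fatty acids, and the comparison asks whether cells with and without Mcl1 answered low glucose differently.

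For each gene the response of a line is the log2 ratio of its level in low glucose to that in regular medium, and the interaction is the TKO response minus the DKO response. A positive (higher) interaction means that a transcript rose more, or fell less, in TKO than in DKO, and a negative (lower) one the reverse. Levels are CPM, read counts divided by library size with a correction for library composition, and a gene was called at an adjusted p under 0.05. Of 24982 genes in the count table, 11988 had enough counts to be tested and 3553 of them were called in the interaction. They make up 29.6% of the genes tested, with 2106 higher (17.6%) and 1447 lower (12.1%).

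MCL-1 is a member of the BCL-2 family that restrains apoptosis by holding BAX and BAK and the proteins that activate them, and a form of it inside mitochondria has been linked to respiration and lipid metabolism. Glucose feeds glycolysis, nucleotide synthesis and the mitochondrial TCA cycle. When it runs short, cells commonly slow the cell cycle and ribosome production, and raise the transcription factor ATF4, which drives amino acid synthesis and uptake. FOXO factors, lysosomal genes and fat-burning genes are further known parts of the answer to nutrient shortage.

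Mcl1, the gene deleted in TKO alone, had 237, 238 and 242 CPM in DKO in regular medium and 266, 270.2 and 273 CPM in DKO in low glucose. In TKO it had 0.475, 0.354 and 0.391 CPM in regular medium and 0.170, 0.268 and 0.326 CPM in low glucose, or 6 to 14 counts per library. The TKO and DKO libraries did not overlap, as the labels require, and the interaction of Mcl1 was not called (-0.86 ± 0.25, adjusted p = 0.0609). Bax and Bak1, deleted in both lines by their labels, still had counts in every library, 17.1 ± 0.175 to 21.7 ± 1.16 CPM for Bax and 16.9 ± 1.40 to 20.0 ± 0.213 CPM for Bak1 in DKO (mean ± SD, n = 3, regular to low glucose). In TKO the values were 6.17 ± 0.259 to 6.83 ± 1.16 CPM for Bax and 5.30 ± 0.713 to 4.87 ± 0.692 CPM for Bak1, and neither interaction was called (adjusted p = 0.23 and 0.0851). Among the other settings tried, Bak1 was called in 9 of 26 (lowest adjusted p = 0.0108), Mcl1 in 8 of 25 (lowest adjusted p = 0.00153) and Bax in 0 of 26 (lowest adjusted p = 0.0545). Reads from exons outside a deleted part would be counted too, so these 2 genes check the labels only in part.

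The libraries held 22190736 to 56260867 counts each, of which the ribosomal RNA precursor Rn45s took 1.99% to 4.62%. B-lineage genes were abundant in every library, among them Cd79a at 679 to 939 CPM and Pax5 at 622 to 1579 CPM. Hba-a1 and Col3a1, which mark red cells and fibroblasts, were at 0. Summed over 12 red cell and megakaryocyte markers, levels were 0.902 to 1.04 CPM in DKO and 0.194 to 0.554 CPM in TKO. Of these Itga2b, at no more than 0.794 CPM, was called lower in the interaction, a call lost in 17 of 25 other settings. Among 12 fibroblast markers Vim had 262 to 469 CPM and Col6a1, the next highest, no more than 0.196 CPM. The T-cell receptor genes Cd3d, Cd3e and Cd3g reached no more than 0.13 CPM. Of the other T-cell markers Cd2 had 129 to 282 CPM and Lck 8.91 to 100.2 CPM. Summed over 11 T-cell markers, levels were 223 to 230.0 CPM in DKO in regular medium, 246 to 259 in DKO in low glucose, 169 to 200.2 in TKO in regular medium and 239.6 to 296 in TKO in low glucose. Lck was called higher in the interaction (0.40 ± 0.09, adjusted p = 0.00526) and Cd2 was not (0.23 ± 0.10, adjusted p = 0.111). In 6 of 26 other settings Cd2 was called higher too, among them without both TKO libraries numbered 2. Summed over 12 myeloid markers, levels were 8.19 to 8.90 CPM in DKO in regular medium, 12.2 to 12.4 in DKO in low glucose, 3.10 to 4.10 in TKO in regular medium and 3.66 to 6.17 in TKO in low glucose, and the part of such cells in the results was not tested. Replicates of TKO differed more among themselves than those of DKO. Over genes of at least 100 CPM the median absolute log2 deviation of a library from its group mean was 0.011 to 0.022 in DKO and 0.033 to 0.075 in TKO, and the TKO libraries numbered 2 in each medium were among the 3 that stood farthest from their group means. Results that lead the text were therefore also computed without these 2 libraries, which gave 4723 calls in the interaction, 2831 higher and 1892 lower.

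Low glucose changed more genes, and changed them further, in DKO than in TKO. In DKO 3789 genes rose (31.6%) and 3723 fell (31.1%), against 2632 that rose (22%) and 2149 that fell (17.9%) in TKO. Changes of at least 2-fold were called for 519 rises and 173 falls in DKO and for 317 rises and 32 falls in TKO. Over the 8785 genes with at least 5 CPM in each line, the median absolute response was 0.26 in DKO and 0.14 in TKO on the log2 scale. The median standard errors were 0.057 and 0.059, but the fit gives each gene a spread that all groups share. They therefore do not show the wider scatter of the TKO replicates. The responses of these genes in the 2 lines, which share no library, had a Pearson correlation of 0.76 across genes, and the principal axis of the cloud had a slope of 0.51, so that a typical TKO response was about that share of the DKO response. Genes are not independent replicates, and the value describes these libraries.

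**Figure D1:**
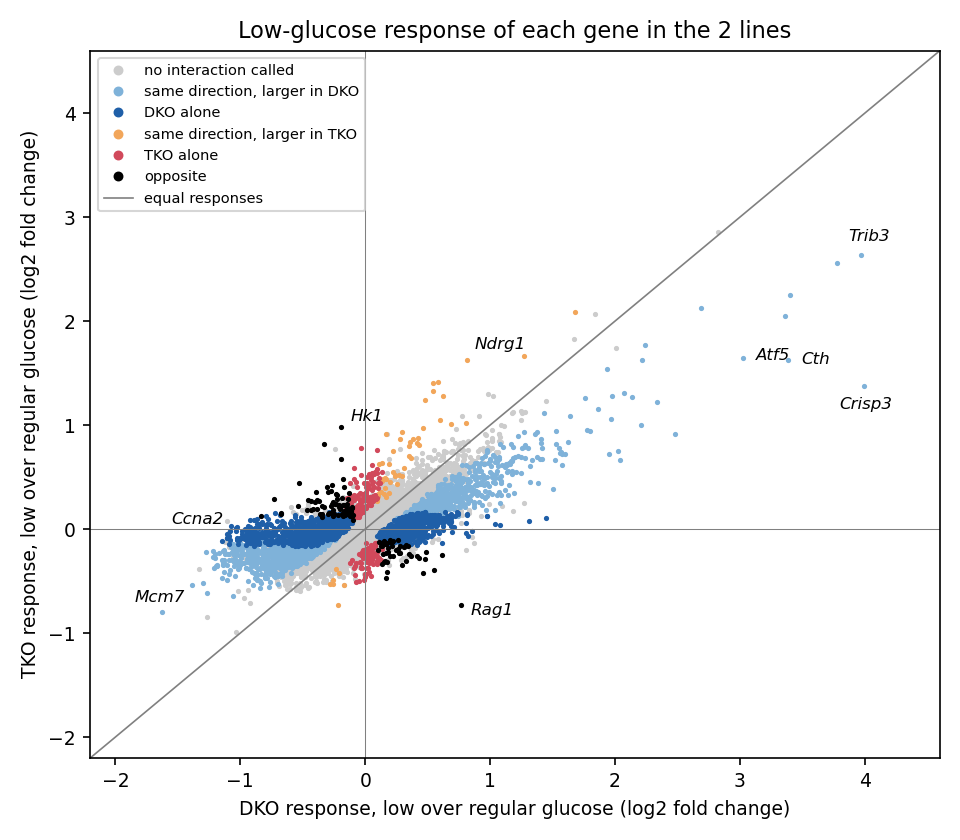
Each point is 1 of the 8785 genes with at least 5 CPM in each line, placed by its log2 response to low glucose in DKO (x axis) and in TKO (y axis) and coloured by class of interaction. The cloud lies flatter than the grey line of equal responses (axis slope 0.51), with Trib3, Cth and Crisp3 below the line, Ndrg1 above it, and Hk1 and Rag1 in the corners of opposite responses.

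The called genes fell into classes by the 2 responses. In 1369 genes both lines responded the same way and DKO responded more, and in 87 TKO responded more. Genes that responded in DKO alone numbered 1344 (11.2% of genes tested), 526 rising and 818 falling. Those that responded in TKO alone numbered 215 (1.79%), 136 rising and 79 falling. Here "alone" means called in 1 line, while in the other line the response was not called and its 95% interval lay within 0.32 of 0 on the log2 scale. That interval rests on the spread shared by all groups. In 151 genes (1.26%) both responses were called with opposite signs, 91 of them up in TKO and down in DKO, and 60 the reverse. Of the 3863 genes called in both lines, 3712 moved the same way. In the remaining called genes the other line's response was too uncertain for "alone" (282 called in DKO and 65 in TKO), or neither response passed by itself (40). Class also depends on whether the replicate number is kept as a block within each line. With that block 1054 of the 1344 genes remained in DKO alone, 226 moved the same way in both lines and more in DKO, and 60 moved in opposite directions. Of the genes given below as responding in 1 line alone, Acadl, Acsl5, Ccna2, Gem, Kif11, Pgk1, Pnpla2, Rrm2 and Shcbp1 were called in both lines with that block.

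2 properties of the data move with these counts. The split of calls into higher and lower depended on how libraries were scaled, with 59.3% higher under the scaling used (TMM), 1897 against 1629 with size factors from DESeq2's median-of-ratios method, 1564 against 1868 with total counts and 1469 against 2115 with upper quartiles. The interaction also moved with the GC content of transcripts, with a Spearman correlation of -0.31 over 8742 genes and a median interaction of 0.12, 0.04 and -0.07 in 3 equal groups of genes with low, middle and high GC content. Single libraries deviated from their own group means along GC content with Spearman correlations from -0.47 to 0.54. Correlations of this strength thus also occur between replicates, but they do not give the size of a trend in log2 units. With the GC trend of each library removed, 3475 genes were called, 1779 higher and 1696 lower. Leaving out 1 library at a time gave 2819 to 4079 calls. The number called lower was 928 without the second DKO library in low glucose, and the number with opposite responses was 259 without the second TKO library in regular medium and 100 without the first or the third. Those that responded in TKO alone numbered 143 without the first and 339 without the second TKO library in regular medium, and those larger in TKO 56 without the second or the third DKO library in regular medium.

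**Figure D2:**
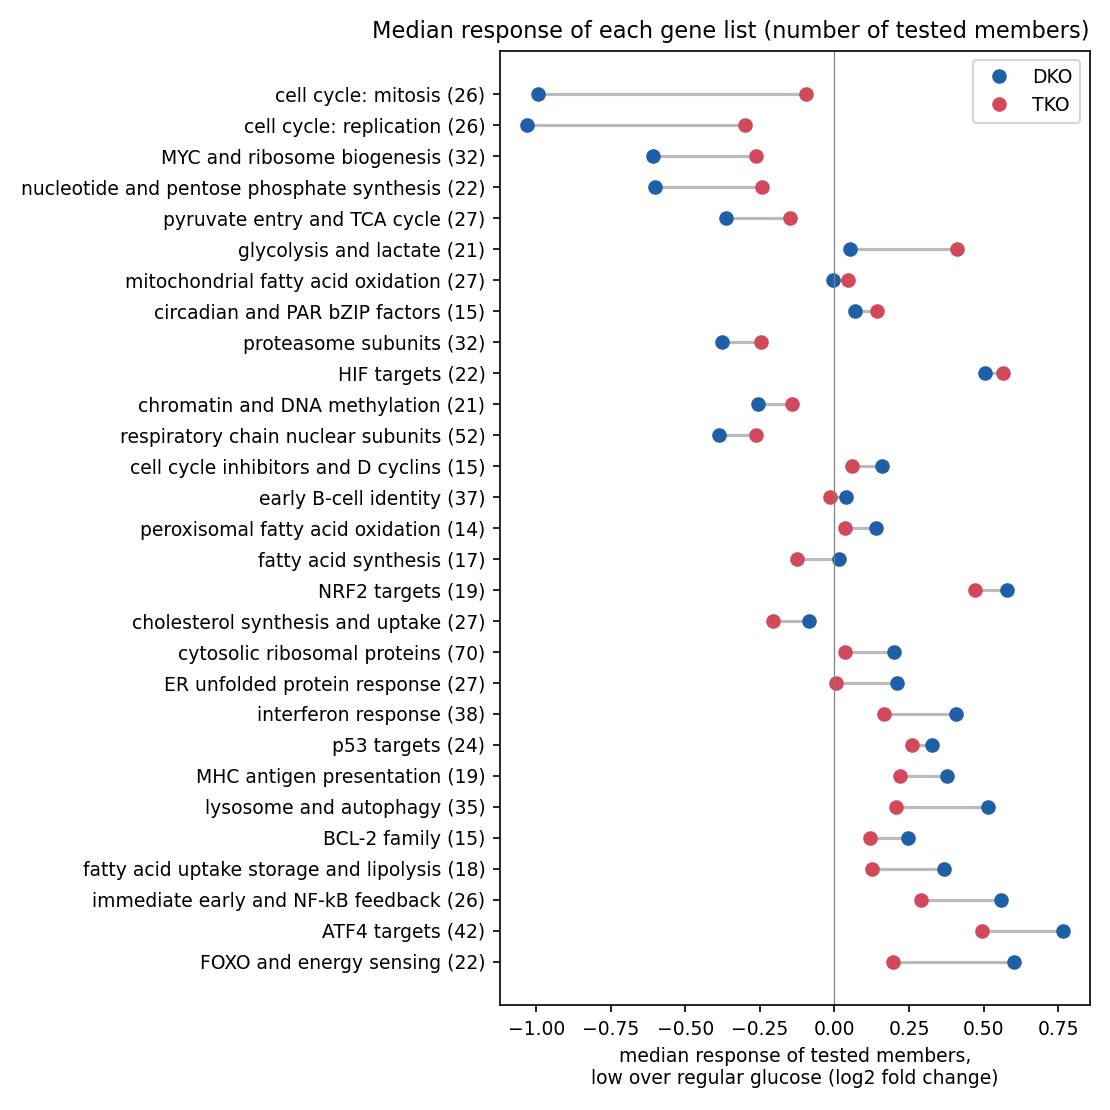
Median log2 response of the tested members of each of 29 gene lists in DKO (blue) and TKO (red), with the number of tested members in brackets and lists in order of the median interaction. Cell cycle lists sit at the top, near -1 in DKO and -0.30 or -0.10 in TKO, and glycolysis stands out with a median near 0 in DKO and 0.41 in TKO.

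Among the gene lists, cell cycle genes gave the most uniform difference between the lines. Lists and members were chosen with earlier results of these data known, so the counts below are not an independent check. All 26 tested genes of DNA replication and all 26 tested genes of mitosis were called higher in the interaction, where 17.6% of all genes tested were. The replication genes fell in DKO with a median of -1.03 and in TKO with a median of -0.30, and the mitosis genes with medians of -0.99 and -0.10. Their median interactions were 0.76 and 0.89, against 0.03 over all genes tested. All genes of both lists fell in DKO, where 31.1% of all genes tested did. In TKO 24 replication genes and 10 mitosis genes fell, where 17.9% of all genes tested did. Both counts stayed at 26 under every scaling, without any single library, without both TKO libraries numbered 2, and with the GC trend removed. In bulk RNA, fewer cells in a phase of the cycle and less RNA per cell cannot be told apart.

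Mcm7, a subunit of the MCM helicase that unwinds DNA at replication origins (chr5:138164583-138172111, mm10), had 464, 456 and 463 CPM in DKO in regular medium, 189, 187 and 186 in DKO in low glucose, 528, 528 and 522 in TKO in regular medium and 366, 369 and 367 in TKO in low glucose. It fell in both lines without overlap between media, 2.46-fold in DKO and 1.43-fold in TKO, and the interaction was 0.78 ± 0.04 (adjusted p = 1.53e-07). Cdc6, which loads that helicase (chr11:98907709-98923942), had 71.6, 74.0 and 75.4 CPM in DKO in regular medium, 34.2, 34.3 and 34.8 in DKO in low glucose, 91.0, 92.2 and 90.4 in TKO in regular medium and 76.5, 76.6 and 79.0 in TKO in low glucose. Its level was 2.14-fold lower in low glucose in DKO and 1.18-fold lower in TKO, an interaction of 0.86 ± 0.05 (adjusted p = 1.53e-07). The ribonucleotide reductase subunit Rrm1 gave 0.84 ± 0.05 and the polymerase subunit Pola1 0.93 ± 0.06. Cyclin E2 (Ccne2) and the second reductase subunit Rrm2 fell in DKO (-0.95 and -0.90) and were not called in TKO (-0.02 and -0.11), though Rrm2 was with the replicate number as a block within line (adjusted p = 0.00610).

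Ccna2, cyclin A2 of S phase and mitosis (chr3:36564865-36573038), had 487, 499 and 501 CPM in DKO in regular medium, 231, 230.0 and 230.0 in DKO in low glucose, 559.6, 602 and 573 in TKO in regular medium and 529, 561 and 542 in TKO in low glucose. The DKO groups lie far apart and the TKO groups overlap, with a 2.15-fold fall in DKO, a TKO response of -0.09 ± 0.04 that was not called (adjusted p = 0.0876) and an interaction of 1.02 ± 0.05 (adjusted p = 1.53e-07). With the replicate number as a block within line the TKO fall of Ccna2 was -0.09 ± 0.03 and was called (adjusted p = 0.0170). Ccnb2, cyclin B2 of mitosis (chr9:70407689-70421554), had 157, 153 and 159 CPM in DKO in regular medium, 81.5, 82.8 and 78.5 in DKO in low glucose, 166, 164 and 166 in TKO in regular medium and 158, 167 and 158 in TKO in low glucose. DKO alone responded, by -0.95 ± 0.04 against -0.04 ± 0.04 in TKO (95% interval -0.12 to 0.04). The spindle motor Kif11 (chr19:37376382-37421863) fell from 483 ± 9.80 to 240.2 ± 5.04 CPM in DKO (mean ± SD, n = 3) and had 548 ± 17.6 to 511 ± 22.4 CPM in TKO (adjusted p = 0.0664). Among the 26 mitosis genes, 14 responded in DKO alone, 10 fell in both lines and more in DKO, and Ndc80, a kinetochore subunit that holds microtubules, moved in opposite directions. With the block within line 8 responded in DKO alone, 15 moved the same way and more in DKO, and 3 moved in opposite directions. Kif11 was then called in TKO too (adjusted p = 0.0202). Levels of Ndc80 were 75.7, 78.0 and 79.3 CPM in DKO in regular medium, 56.6, 54.98 and 57.7 in DKO in low glucose, 108, 119.8 and 109.6 in TKO in regular medium and 126, 145 and 140.3 in TKO in low glucose, with responses of -0.46 and 0.28. The proliferation marker Mki67 fell in DKO (1506 ± 73.9 to 692 ± 45.6 CPM) and had 2106 ± 339 to 1938 ± 239.6 CPM in TKO, where the library numbered 2 was the highest in each medium.

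Promoters of the 2 replication genes and the 2 mitosis genes that combine the lowest adjusted p with a match to a known cell cycle element are shown, since these genes moved together. The sequences are the 250 bases before the first transcript start that the RefSeq promoter table lists for the gene (GRCm38.p6, the build also called mm10), written 5′ to 3′ on the gene's strand. Capitals mark the E2F element, TTTCCCGC or TTTGGCGC, in Cdc6, chr11:98907901-98908150 (plus strand), and Mcm7, chr5:138171884-138172133 (minus strand), and the cell cycle homology region, TTTGAA, in Ccnb2, chr9:70421555-70421804 (minus strand), and Kif11, chr19:37376132-37376381 (plus strand), on either strand.
Cdc6 promoter: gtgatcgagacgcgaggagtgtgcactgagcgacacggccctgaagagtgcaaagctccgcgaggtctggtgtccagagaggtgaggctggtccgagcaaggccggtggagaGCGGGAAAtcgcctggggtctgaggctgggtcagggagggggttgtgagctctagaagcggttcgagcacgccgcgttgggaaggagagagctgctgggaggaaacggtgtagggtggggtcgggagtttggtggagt
Mcm7 promoter: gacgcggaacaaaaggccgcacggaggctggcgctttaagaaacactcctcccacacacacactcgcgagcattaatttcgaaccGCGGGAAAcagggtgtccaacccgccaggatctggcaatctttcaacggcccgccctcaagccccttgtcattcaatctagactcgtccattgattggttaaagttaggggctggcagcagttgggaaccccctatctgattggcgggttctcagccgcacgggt
Ccnb2 promoter: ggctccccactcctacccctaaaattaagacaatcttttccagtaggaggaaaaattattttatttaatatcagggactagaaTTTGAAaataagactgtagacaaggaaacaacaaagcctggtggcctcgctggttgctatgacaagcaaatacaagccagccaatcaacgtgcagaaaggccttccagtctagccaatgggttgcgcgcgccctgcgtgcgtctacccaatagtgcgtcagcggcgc
Kif11 promoter: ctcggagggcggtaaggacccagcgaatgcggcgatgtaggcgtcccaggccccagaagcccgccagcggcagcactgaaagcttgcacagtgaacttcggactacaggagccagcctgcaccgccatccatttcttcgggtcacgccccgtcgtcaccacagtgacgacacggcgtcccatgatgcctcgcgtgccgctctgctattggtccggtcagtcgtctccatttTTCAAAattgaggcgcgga

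The capitals begin 138 bases before that start in Cdc6, 165 in Mcm7, 167 in Ccnb2 and 19 in Kif11. In Cdc6 and Mcm7 that start lies inside the gene's outermost span given above, so the Cdc6 window lies within the span and the Mcm7 window mostly within it. Of the replication genes 20 had a promoter in the RefSeq table and 5 of these (25%) held an E2F element on either strand, against 257 of 9350 promoters of genes tested (2.75%) and 1.35% of all 27025 promoters. Of the mitosis genes 7 of 20 (35%) held TTTGAA, against 990 of 9350 (10.6%) and 16.3% of all promoters. Across genes tested, those with an E2F element had a median interaction of 0.12 and those without one 0.03. A match describes these letters in this window and is not a measured binding site.

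**Figure D3:**
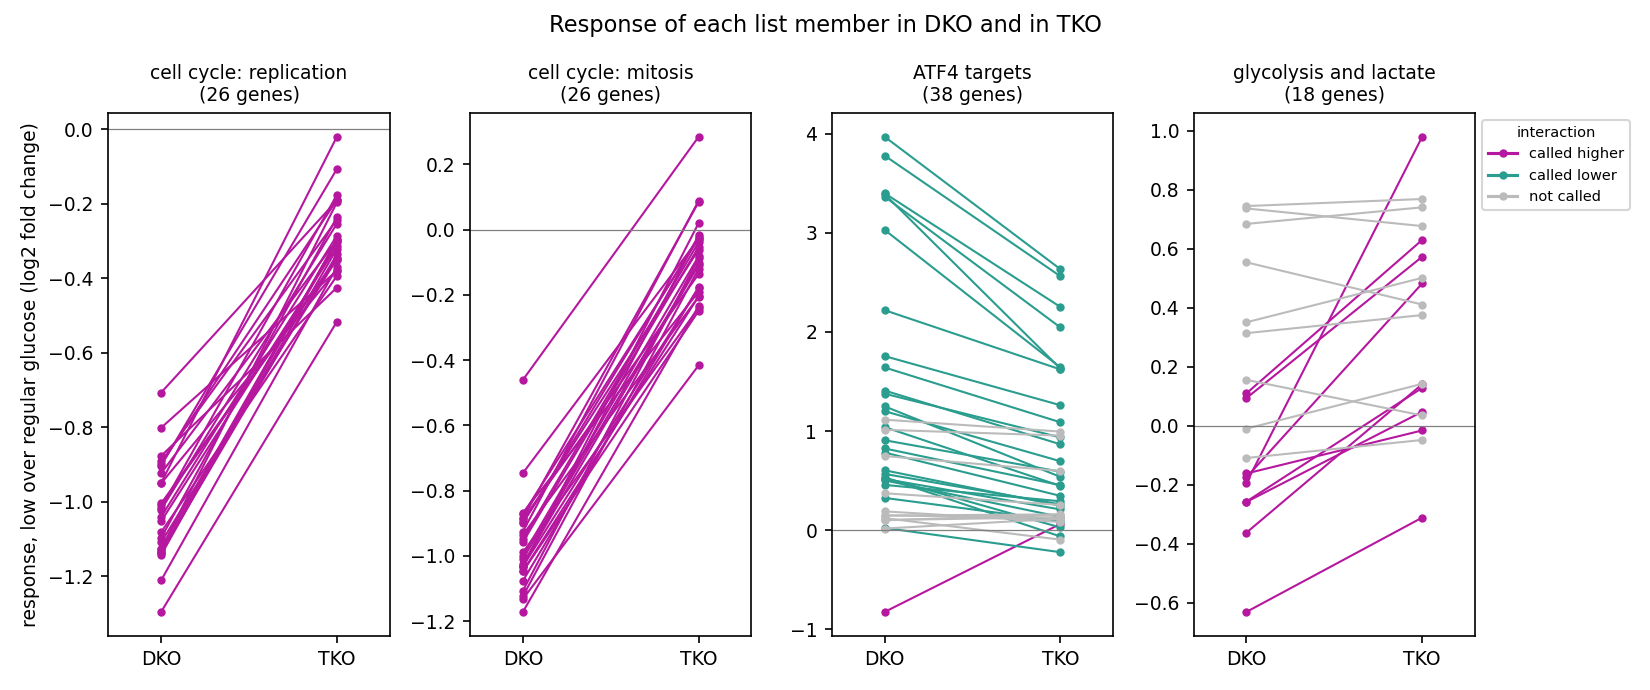
Each line joins a gene's log2 response in DKO to its response in TKO, for list members with at least 1 CPM in each line. All 26 replication and 26 mitosis genes rise from left to right, most of the 38 ATF4 targets come down towards 0, and several of the 18 glycolysis genes cross the grey line at 0.

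Genes that make ribosomes and nucleotides followed the replication genes at smaller size. Of 32 tested genes of MYC and ribosome biogenesis, 21 were called higher (65.6%) and 1 lower (3.1%). Over all genes tested 17.6% were higher and 12.1% lower. With upper quartile scaling 18 of the 32 were higher and 3 lower. The median response of the list was -0.61 in DKO and -0.26 in TKO. Myc itself, the transcription factor that drives this programme (chr15:61985341-61990361), had 333, 321 and 322 CPM in DKO in regular medium, 212, 207 and 209.6 in DKO in low glucose, 304, 396 and 295 in TKO in regular medium and 327, 396 and 261 in TKO in low glucose. It fell 1.55-fold in DKO with no overlap between media, while the TKO libraries scattered from 261 to 396 CPM in both media, the libraries numbered 2 highest at 396 CPM in each. The interaction was 0.62 ± 0.17 (adjusted p = 0.0168). The nucleolar proteins Nop58 and Dkc1 gave interactions of 0.59 ± 0.06 and 0.47 ± 0.06, with responses of -0.86 and -0.72 in DKO and -0.27 and -0.25 in TKO. The 1 gene called lower, Mxd4, encodes an antagonist of MYC and rose in both lines, by 0.94 in DKO and 0.52 in TKO. Of 22 genes of nucleotide synthesis and the pentose phosphate route, 13 were called higher (59.1%) and 2 lower (9.09%). None was lower without the first or the second DKO library in low glucose. The medians were -0.60 in DKO and -0.24 in TKO. Ppat, the first enzyme of purine synthesis, went from 207 ± 0.957 to 109 ± 1.12 CPM in DKO and from 211 ± 6.29 to 173 ± 5.97 CPM in TKO (mean ± SD, n = 3).

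ATF4 targets rose in both lines and rose more in DKO. Of 42 tested genes, 32 rose in DKO and 34 in TKO, where 31.6% and 22% of all genes tested did. In the interaction 26 were called lower (61.9%, against 12.1% of all genes tested) and 1 higher. The median response was 0.77 in DKO and 0.50 in TKO, and the median interaction -0.31. Leaving out 1 library at a time gave 23 to 27 called lower.

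Trib3, a pseudokinase induced by ATF4 that restrains AKT (chr2:152337425-152344060), had 2.66, 2.94 and 2.80 CPM in DKO in regular medium, 44.1, 43.6 and 44.0 in DKO in low glucose, 3.15, 2.48 and 3.19 in TKO in regular medium and 18.5, 17.4 and 19.0 in TKO in low glucose. All libraries in low glucose lie above all in regular medium, 15.6-fold in DKO and 6.20-fold in TKO, and the low glucose levels of the lines do not overlap (interaction -1.34 ± 0.12, adjusted p = 1.92e-06). Cth, which makes cysteine from cystathionine (chr3:157894248-157925081), had 2.41, 1.83 and 2.22 CPM in DKO in regular medium, 21.9, 22.96 and 22.8 in DKO in low glucose, 17.1, 13.99 and 14.6 in TKO in regular medium and 46.4, 42.4 and 52.2 in TKO in low glucose. The media do not overlap in either line. TKO was the higher line in both media, and the response was 3.39 ± 0.11 in DKO and 1.63 ± 0.09 in TKO. Atf5, a transcription factor of the same stress response, rose 8.16-fold in DKO (12.002 ± 1.04 to 97.8 ± 0.955 CPM) and 3.12-fold in TKO (15.9 ± 0.652 to 49.8 ± 4.21 CPM). The glycine transporter Slc6a9 gave an interaction of -1.32 ± 0.11, and Chac1, which breaks down glutathione, -1.15 ± 0.16. Atf4 itself rose from 207 ± 1.64 to 294 ± 6.94 CPM in DKO and from 213 ± 10.2 to 234 ± 9.89 CPM in TKO.

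Amino acid carriers were among the targets that responded in DKO alone. Slc38a2, a carrier of small neutral amino acids such as alanine and glutamine (chr15:96687392-96699728), had 457, 459 and 461 CPM in DKO in regular medium, 672, 666 and 651 in DKO in low glucose, 571, 527 and 559 in TKO in regular medium and 567, 517 and 603 in TKO in low glucose. DKO libraries separate by medium and TKO libraries overlap, with responses of 0.53 ± 0.05 and 0.03 ± 0.05. The glutamine carrier Slc1a5 had responses of 0.53 in DKO and -0.06 in TKO, and its interaction was -0.59 ± 0.10 (adjusted p = 0.000512). Psat1, an enzyme of serine synthesis (chr19:15905123-15925059), is the 1 member called higher, and had 119.9, 118 and 124 CPM in DKO in regular medium, 67.6, 68.5 and 68.5 in DKO in low glucose, 261, 259 and 269 in TKO in regular medium and 271, 274 and 279.9 in TKO in low glucose. It fell in DKO (-0.82) and was not called in TKO (0.06, adjusted p = 0.162). Members that rose in both lines with no call in the interaction included Ddit4, an inhibitor of mTORC1, with 1.01 and 0.95 (interaction -0.06 ± 0.11), and Atf3, with 1.11 and 0.99. Vldlr and Stc2 had no counts in any of the 6 DKO libraries and rose in TKO, from 0.680 to 8.08 CPM and from 2.28 to 6.84 CPM, so their difference in response has no fold.

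For the ATF4 targets the promoters of Asns, asparagine synthetase, chr6:7693210-7693459 (minus strand), and Chac1, chr2:119350992-119351241 (plus strand), are shown. They were picked by a low adjusted p of the interaction among targets that hold the composite site bound by ATF4 with C/EBP partners, TGATGNAA. The site is in capitals. The window, source and strand rule are those given above.
Asns promoter: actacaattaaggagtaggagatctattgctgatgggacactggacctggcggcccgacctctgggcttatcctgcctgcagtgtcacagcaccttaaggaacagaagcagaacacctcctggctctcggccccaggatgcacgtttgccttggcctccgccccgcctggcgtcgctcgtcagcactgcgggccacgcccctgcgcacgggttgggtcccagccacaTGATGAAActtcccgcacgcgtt
Chac1 promoter: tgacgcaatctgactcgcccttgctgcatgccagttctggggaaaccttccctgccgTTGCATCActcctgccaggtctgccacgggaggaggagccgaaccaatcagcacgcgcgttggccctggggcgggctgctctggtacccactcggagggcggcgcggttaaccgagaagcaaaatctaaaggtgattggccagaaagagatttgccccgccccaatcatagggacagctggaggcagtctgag

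The site begins 23 bases before the listed start in Asns and 193 in Chac1. Asns had 94.9, 91.8 and 94.0 CPM in DKO in regular medium, 215, 217 and 213 in DKO in low glucose, 121, 114 and 127 in TKO in regular medium and 191, 193 and 203 in TKO in low glucose, with responses of 1.20 ± 0.04 and 0.70 ± 0.04 (interaction -0.50 ± 0.06, adjusted p = 2.7e-05). TGATGNAA was found on either strand in 9 of the 35 ATF4 targets with a promoter in the table (25.7%), in 184 of 9350 genes tested (1.97%) and in 3.53% of all promoters. The median interaction was -0.05 in genes tested with the site and 0.03 in those without.

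Genes of the endoplasmic reticulum stress response differed as well. Of 27 tested, 12 were called lower (44.4%) and none higher, where 12.1% and 17.6% of all genes tested were. Leaving out 1 library at a time gave 9 to 16 lower. The sensor Atf6 rose in DKO alone (0.36 against -0.0019), and the folding factor Manf rose in DKO (0.15) and fell in TKO (-0.12). The main chaperone Hspa5 was called in neither line (0.05 and -0.07).

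Among FOXO targets, lysosomal genes and interferon genes, nearly all called members were lower in the interaction. Of 22 FOXO and energy-sensing genes, 12 were called lower (54.5%) and none higher, with medians of 0.60 in DKO and 0.19 in TKO. Of all genes tested 12.1% were called lower and 17.6% higher. S1pr1, a lymphocyte migration receptor under FOXO control (chr3:115710433-115715055), had 6.23, 6.19 and 5.93 CPM in DKO in regular medium, 30.2, 30.6 and 31.7 in DKO in low glucose, 10.3, 11.4 and 10.5 in TKO in regular medium and 24.2, 27.4 and 23.7 in TKO in low glucose. Its rise was 5.05-fold in DKO and 2.33-fold in TKO, without overlap between media in either line. Txnip, a glucose-sensitive brake on glucose uptake (chr3:96557957-96561857), had 143, 148 and 147 CPM in DKO in regular medium, 215, 213 and 218 in DKO in low glucose, 105, 103 and 105 in TKO in regular medium and 105, 98.5 and 107 in TKO in low glucose. DKO alone responded, with 0.56 ± 0.04 against -0.01 ± 0.04 in TKO, and the interaction was -0.58 ± 0.05 (adjusted p = 3.27e-06). Foxo1 rose in both lines, from 219 ± 5.39 to 459.8 ± 5.85 CPM in DKO and from 182 ± 6.91 to 295 ± 9.99 CPM in TKO.

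Lysosome and autophagy genes included 17 of 35 called lower and none higher, with medians of 0.51 in DKO and 0.21 in TKO. Sqstm1, the autophagy receptor p62, went from 136 ± 6.02 to 314 ± 4.54 CPM in DKO and from 84.2 ± 1.502 to 123 ± 4.04 CPM in TKO, and the interaction was -0.66 ± 0.06. The cathepsins Ctsd and Ctsb gave interactions of -0.44 ± 0.06 and -0.38 ± 0.05, and the autophagosome protein Map1lc3b -0.46 ± 0.06. In the interferon list 18 of 38 genes were called lower and 2 higher (medians 0.41 in DKO and 0.17 in TKO). Irf9 and Stat2, parts of the complex that carries the interferon signal to genes, rose by 0.96 and 0.77 in DKO and by 0.43 and 0.27 in TKO. Over all genes tested 12.1% were called lower and 17.6% higher. In the MHC list 6 of 19 were called lower (31.6%) and 1 higher, and of 19 NRF2 targets 5 (26.3%) were lower and none higher (3 lower without the first DKO library in low glucose, 8 without both TKO libraries numbered 2). Ftl1 and Fth1, the ferritin subunits, are among the 5, with interactions of -0.96 ± 0.24 and -0.46 ± 0.08, but both have many near-identical pseudogenes and their counts are uncertain.

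Glycolysis went the other way. Of 21 tested genes of glycolysis and lactate, 10 were called higher (47.6%, against 17.6% of all genes tested) and none lower. The median response was 0.05 in DKO and 0.41 in TKO. In TKO 13 of the 21 genes rose, where 22% of all genes tested did. In DKO 8 rose and 8 fell, where 31.6% and 31.1% of all genes tested did. Without any 1 library 9 to 11 were called higher, and with upper quartile scaling 8. The pattern was not shared by all members, since 5 of the 10 moved in opposite directions and others were not called in the interaction.

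Hk1, the hexokinase that traps glucose in the cell (chr10:62268855-62379920), had 281, 268 and 273 CPM in DKO in regular medium, 242, 236 and 241 in DKO in low glucose, 18.1, 20.5 and 18.8 in TKO in regular medium and 39.2, 42.7 and 31.9 in TKO in low glucose. It fell slightly in DKO (-0.19 ± 0.07, adjusted p = 0.0295) and rose 1.97-fold in TKO, in each case without overlap between media, and the interaction was 1.17 ± 0.11 (adjusted p = 4.07e-06). In low glucose the TKO level nevertheless stayed below every DKO library. Ldha, lactate dehydrogenase A (chr7:46842274-46855627), had 778, 769.9 and 783 CPM in DKO in regular medium, 602, 608 and 604 in DKO in low glucose, 944, 959 and 969 in TKO in regular medium and 1054, 1071 and 1041 in TKO in low glucose. All DKO libraries in low glucose lie below those in regular medium and all TKO libraries above, with responses of -0.36 ± 0.03 and 0.14 ± 0.03 (interaction 0.50 ± 0.05). Hk2 and Pkm, a second hexokinase and pyruvate kinase, also fell in DKO (-0.26 and -0.17) and rose in TKO (0.13 and 0.48). Aldoc, an aldolase, did the same, from 0.703 ± 0.0441 to 0.451 ± 0.111 CPM in DKO, a very low level, and from 4.82 ± 0.155 to 13.1 ± 0.622 CPM in TKO.

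Triose phosphate isomerase (Tpi1) rose in both lines and more in TKO, from 226 ± 5.47 to 244 ± 4.67 CPM in DKO and from 269.6 ± 3.35 to 417 ± 4.52 CPM in TKO (interaction 0.52 ± 0.05, adjusted p = 3.42e-06). Phosphoglycerate kinase (Pgk1) rose in TKO alone (0.57 ± 0.05 against 0.09 ± 0.05 in DKO). The glucose carrier Slc2a1 and the enzymes Aldoa, Pfkp and Gpi1 rose in both lines, by 0.68, 0.74, 0.74 and 0.31 in DKO and by 0.74, 0.77, 0.68 and 0.38 in TKO, and none was called in the interaction. The lactate carrier Slc16a1 fell in both lines and more in DKO (-0.63 and -0.31), a call that was lost with upper quartile scaling, total counts or the GC trend removed. Gapdh, Ldha, Pgk1, Pkm and Tpi1 have processed pseudogenes, and how shared reads were counted is not given, so small differences in them are uncertain.

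Targets of HIF, the oxygen-sensing factor that also controls glycolysis, rose in both lines (medians 0.50 in DKO and 0.57 in TKO). Of the 22 tested, 14 rose in DKO and 15 in TKO, where 31.6% and 22% of all genes tested did. In the interaction 7 were called higher (31.8%) and 1 lower (4.55%), where 17.6% and 12.1% of all genes tested were. Pdk1, the kinase that shuts pyruvate out of the TCA cycle (chr2:71873215-71903858), had 199, 197 and 197 CPM in DKO in regular medium, 205, 204 and 205 in DKO in low glucose, 157, 159.5 and 159 in TKO in regular medium and 230.3, 222 and 236 in TKO in low glucose. DKO hardly moved (0.05 ± 0.03, not called) and TKO rose 1.45-fold, so that TKO went from below every DKO library to above (interaction 0.48 ± 0.05, adjusted p = 5.6e-06). Ndrg1 and Bnip3l, HIF targets of stress and mitophagy, rose further in TKO (1.63 and 1.05) than in DKO (0.82 and 0.60). ERO1L, a disulfide-forming oxidase, gave an interaction of 0.48 ± 0.06. P4ha1, which hydroxylates proline in collagen, is the 1 member called lower (-0.50 ± 0.05), and the mitophagy receptor Bnip3 (1.245 and 1.14) and Vegfa (0.38 and 0.34) rose in both lines with no call in the interaction.

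**Figure D4:**
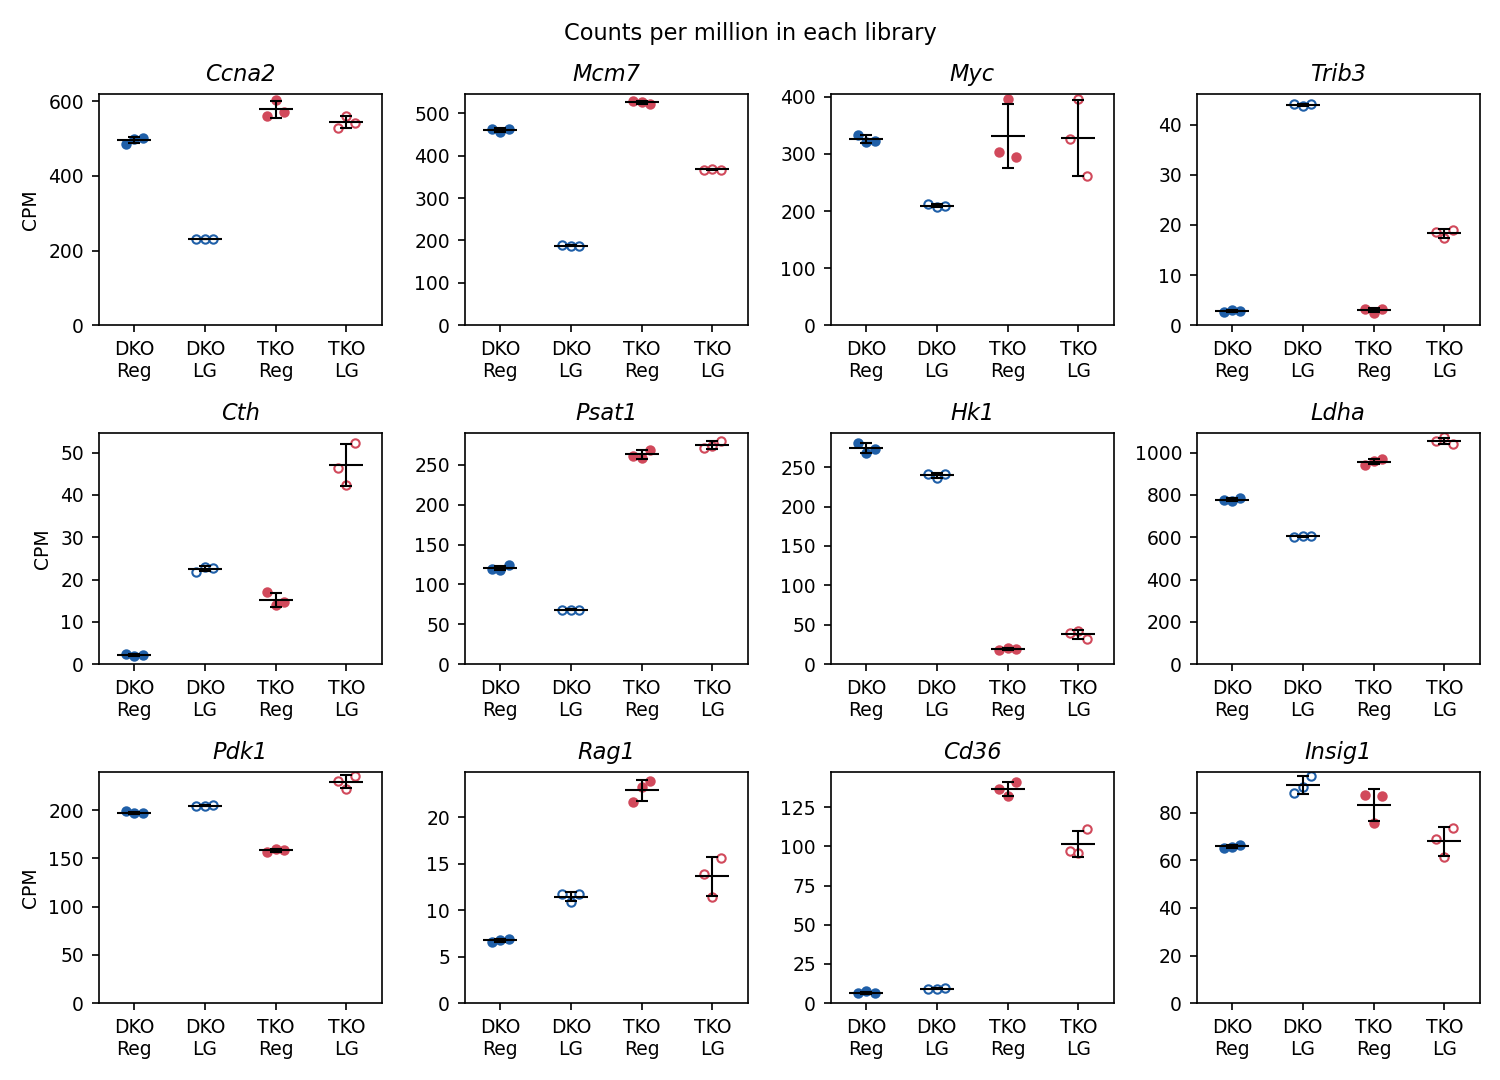
CPM of 12 genes in each library, with the 4 groups on the x axis (Reg, regular medium, filled; LG, low glucose, open) and the mean ± SD of 3 libraries in black. Ccna2 and Psat1 fall in DKO, Trib3 and Cth rise in both, Pdk1 rises in TKO, and Hk1, Ldha, Rag1, Cd36 and Insig1 move in opposite directions.

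Of 27 tested genes of pyruvate entry and the TCA cycle 15 were called higher in the interaction and none lower, with medians of -0.36 in DKO and -0.15 in TKO. With upper quartile scaling or total counts 10 were higher and none lower. Pdha1, of the pyruvate dehydrogenase complex, went from 234 ± 2.40 to 210.1 ± 3.41 CPM in DKO and from 266 ± 9.17 to 299.6 ± 5.23 CPM in TKO, opposite moves of -0.16 and 0.17. Pcx, pyruvate carboxylase, did likewise with -0.23 and 0.34. The dehydrogenase subunit Idh3a fell in both lines (-0.77 and -0.34), and the malic enzyme Me2 fell in DKO alone (-0.40 and -0.02). Nuclear subunits of the respiratory chain fell in both lines, 44 of 52 in DKO and 42 in TKO, where 31.1% and 17.9% of all genes tested did. In the interaction 12 were called higher (23.1%) and 3 lower (5.77%), where 17.6% and 12.1% of all genes tested were. Without both TKO libraries numbered 2 these counts were 16 and 11, and with upper quartile scaling 6 and 5. With the GC trend removed 7 were higher. The number lower was 7 without the second TKO library in regular medium and 1 without any 1 of the DKO libraries, the first or the third TKO library in regular medium or the first in low glucose.

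Fatty acid oxidation is the process in the study's title. Of 27 tested genes of mitochondrial oxidation, 8 were called higher (29.6%) and 1 lower (3.70%), where 17.6% and 12.1% of all genes tested were, with medians near 0 in DKO and of 0.04 in TKO and a median interaction of 0.12. With upper quartile scaling 5 were higher and 1 lower, and with the GC trend removed 3 were lower. Cpt1a, the carnitine transferase that admits long-chain fatty acids into mitochondria (chr19:3322326-3385735), had 106, 103 and 103 CPM in DKO in regular medium, 148, 147 and 145 in DKO in low glucose, 44.6, 44.5 and 45.7 in TKO in regular medium and 69.6, 67.0 and 69.7 in TKO in low glucose. It rose in both lines without overlap, 1.41-fold in DKO and 1.53-fold in TKO, and the interaction of 0.12 ± 0.05 was not called (adjusted p = 0.0769). Over all settings it ran from 0.05 to 0.16 with adjusted p from 0.0143 to 0.732. It was called in 5 of 26 other settings, among them without the second TKO library in low glucose. With the replicate number as a block within line it was called too, as a rise in both lines that was larger in TKO. Acadl, the dehydrogenase of long-chain fatty acids, rose in TKO alone, from 109 ± 6.97 to 129.7 ± 6.69 CPM, against 106 ± 2.64 to 97.7 ± 0.878 CPM in DKO (interaction 0.37 ± 0.07, adjusted p = 0.00123). The activating enzyme Acsl5 and the oxidation enzyme Hadha fell in DKO alone (-0.52 and -0.27, against -0.08 and -0.03 in TKO). Ppard, a receptor that induces oxidation genes, is the 1 member called lower, rising by 1.14 in DKO and 0.33 in TKO.

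Other lipid genes split by process. Cd36, a fatty acid importer (chr5:17781690-17888959), had 6.20, 7.49 and 6.30 CPM in DKO in regular medium, 9.15, 9.001 and 9.38 in DKO in low glucose, 136, 132 and 141 in TKO in regular medium and 97.2, 95.8 and 111 in TKO in low glucose. It rose in DKO and fell in TKO, each without overlap (0.46 ± 0.08 and -0.43 ± 0.06), and every TKO library lay far above every DKO library in both media. The interaction was -0.89 ± 0.10 (adjusted p = 3.11e-05). The lipid chaperone Fabp5 fell in DKO alone (-0.65 and -0.03), and the acid lipase Lipa rose more in DKO (interaction -0.33 ± 0.07). Pnpla2, the first lipase of fat stores, rose in DKO alone (interaction -0.36 ± 0.10), a call lost without any 1 of 4 DKO libraries. Of 18 genes of uptake, storage and lipolysis 5 were called lower (27.8%) and 2 higher (11.1%), where 12.1% and 17.6% of all genes tested were. Without the third DKO library in regular medium or the second in low glucose 3 of these were lower. The peroxisomal route of oxidation had 3 of 14 genes called lower (21.4%) and 2 called higher (14.3%). With any of the other scalings 4 were lower and 1 higher, and leaving out 1 library gave 2 to 4 lower and 1 or 2 higher.

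Of 27 cholesterol genes, 6 responded in TKO alone, where 1.79% of all genes tested did. Of the 27, 16 fell in TKO and 7 in DKO, where 17.9% and 31.1% of all genes tested did. In the interaction 10 were called lower (37.0%) and none higher, where 12.1% and 17.6% of all genes tested were. Without the second DKO library in low glucose 5 were lower. Insig1, which holds the sterol sensor in the endoplasmic reticulum (chr5:28071412-28078662), had 65.3, 65.6 and 66.6 CPM in DKO in regular medium, 88.3, 90.9 and 95.6 in DKO in low glucose, 87.4, 75.7 and 87.0 in TKO in regular medium and 69.1, 61.3 and 73.4 in TKO in low glucose. It rose in DKO and fell in TKO without overlap (0.48 and -0.29, interaction -0.77 ± 0.09). Lss and Fdps, enzymes of the cholesterol route, fell in TKO alone, from 47.3 ± 0.473 to 34.7 ± 1.52 CPM and from 101 ± 7.09 to 74.5 ± 6.06 CPM, while DKO had 36.4 ± 0.976 to 34.3 ± 0.894 CPM and 105 ± 2.55 to 105 ± 2.82 CPM.

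Among 17 fatty acid synthesis genes 3 were called higher and 3 lower, 17.6% each way (1 lower without the first DKO library in low glucose). Of all genes tested 17.6% were called higher and 12.1% lower. Srebf1, the regulator of the pathway, rose in DKO (0.17) and fell in TKO (-0.23), and the synthase Fasn fell in TKO alone (-0.24 against 0.05), a call lost without the first DKO library in low glucose. Scd1, the desaturase that makes oleate, fell in DKO alone, from 1153 ± 6.73 to 832 ± 2.01 CPM, against 708 ± 29.5 to 729 ± 38.4 CPM in TKO (interaction 0.51 ± 0.06).

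B-lineage identity genes were mixed, with 5 of 37 called higher (13.5%, against 17.6% of all genes tested). Of the 37, 11 were called lower (29.7%, against 12.1%) and 3 moved in opposite directions. Without both TKO libraries numbered 2, 8 were called higher, and with upper quartile scaling 3. Rag1, a subunit of the recombinase that joins immunoglobulin gene segments (chr2:101638252-101649532), had 6.56, 6.85 and 6.87 CPM in DKO in regular medium, 11.7, 10.9 and 11.8 in DKO in low glucose, 21.7, 23.3 and 23.9 in TKO in regular medium and 13.9, 11.5 and 15.6 in TKO in low glucose. Low glucose raised it 1.70-fold in DKO and lowered it 1.65-fold in TKO, each without overlap, and the interaction was -1.49 ± 0.12 (adjusted p = 1.24e-06). Its partner Rag2 fell in TKO (-0.46 ± 0.10) and was not called in DKO (0.28 ± 0.17). Dntt, the polymerase that adds untemplated bases at the joins, moved the other way, from 400.3 ± 8.42 to 365 ± 1.04 CPM in DKO and from 23.8 ± 0.412 to 30.4 ± 1.98 CPM in TKO. Irf4 rose in DKO and fell in TKO (0.20 and -0.10), and Bach2, Cd22 and Syk fell in TKO alone (-0.21, -0.29 and -0.28). The calls of Bach2 and Syk were lost without the first or the second DKO library in low glucose, that of Bach2 also without the first in regular medium. The defining genes Pax5, Ebf1 and Cd79a were not called in the interaction. Among 26 other settings Ebf1 was called in 4, including without the second TKO library in regular medium, and Pax5 in 1.

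In the BCL-2 family 2 of 15 genes were called higher (13.3%) and 3 lower (20%), where 17.6% and 12.1% of all genes tested were, and with upper quartile scaling 2 and 9. Without the first DKO library or the second TKO library in regular medium, or the third TKO library in low glucose, 5 were lower. Bmf, a BH3-only inducer of apoptosis, rose from 20.4 ± 0.895 to 74.0 ± 2.33 CPM in DKO and from 20.5 ± 1.11 to 45.6 ± 4.09 CPM in TKO (interaction -0.70 ± 0.09). Pmaip1 and Bcl2l11, which encode NOXA and BIM, rose in both lines and more in DKO (interactions -0.43 ± 0.08 and -0.30 ± 0.10). The call of Bcl2l11 was lost without any 1 of the DKO libraries or without the first or the third TKO library in regular medium. Bcl2 rose in TKO alone, from 27.5 ± 2.76 to 34.7 ± 1.71 CPM, against 23.3 ± 0.165 to 23.02 ± 0.221 CPM in DKO (adjusted p of the interaction = 0.0084). Bok fell in DKO alone (-0.79 and -0.02). The survival gene Bcl2l1 was not called (-0.16 ± 0.06, adjusted p = 0.0532), but was called in 11 of 26 other settings. These include the fits without the first DKO library in regular medium or the second TKO library in low glucose, and each of the other scalings. Of 24 p53 targets 7 were called lower (29.2%) and 1 higher (4.17%). Inhibitors of the cycle and D cyclins had 3 of 15 (20%) called in each direction, against 17.6% higher and 12.1% lower over all genes tested.

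Ribosomal proteins and the proteasome show how far a count can rest on a few libraries. Of 70 tested cytosolic ribosomal protein genes 17 were called lower and none higher, with 5 to 9 lower without the second or the third DKO library in regular medium, any 1 DKO library in low glucose, or the first or the third TKO library in regular medium. The number was 31 without the second TKO library in regular medium and 26 without the third in low glucose, and 40 were lower and 2 higher without both TKO libraries numbered 2. Many of these genes have processed pseudogenes. Of 32 proteasome genes 8 were called higher (25%) and none lower, against 17.6% and 12.1% of all genes tested, with 14 and 2 without those libraries and 4 and 1 with upper quartile scaling.

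Outside the lists, the largest interactions among called genes with at least 5 CPM in each line included cell cycle and ATF4 genes and others. Of 88 genes called at least 2-fold higher and 95 at least 2-fold lower, 21 and 22 had at least 5 CPM in each line, and 109 were under 1 CPM in 1 line, where a ratio rests on few counts. The 8 largest positive ones were Hmgn5 (1.18 ± 0.17), Hk1, Zfp462 (1.15 ± 0.12), Hmmr (1.11 ± 0.08), Hells (1.06 ± 0.09), Mns1 (1.06 ± 0.24), Kif15 (1.06 ± 0.07) and Depdc1a (1.05 ± 0.07). Hmmr and Kif15 act on the mitotic spindle and Hells remodels chromatin in dividing cells, and all 3 fell more than 2-fold in DKO (-1.07, -1.09 and -1.28). In TKO their responses were 0.03, -0.02 and -0.22. Hmgn5 and Mns1 were highest in the TKO libraries numbered 2 in both media, and without these libraries their interactions were 1.18 and 1.02. Zfp462, a zinc finger gene, fell in DKO (33.1 ± 1.04 to 26.4 ± 0.774 CPM) and rose in TKO (6.68 ± 0.449 to 11.98 ± 1.90 CPM).

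The 8 largest negative ones were Crisp3 (-2.62 ± 0.23), Cth, Bcar3 (-1.57 ± 0.11), Rag1, Atf5, Cd53 (-1.38 ± 0.05), Trib3 and Blvrb (-1.34 ± 0.12). Cd53, a tetraspanin of lymphocyte membranes (chr3:106758861-106790149), had 91.6, 92.0 and 93.2 CPM in DKO in regular medium, 374, 381 and 385 in DKO in low glucose, 354, 357 and 362 in TKO in regular medium and 559, 552 and 587 in TKO in low glucose. It rose 4.12-fold in DKO and 1.58-fold in TKO, and DKO in low glucose came close to the level of TKO in regular medium. Crisp3, a secreted protein, went from 1.11 ± 0.153 to 17.9 ± 0.8997 CPM in DKO and from 6.57 ± 0.768 to 16.8 ± 3.70 CPM in TKO, ending at levels that overlap. Bcar3, an adaptor of integrin signalling, rose 5.59-fold and 1.89-fold. Blvrb, biliverdin reductase B, rose in DKO alone (4.31 ± 0.296 to 11.8 ± 0.626 CPM, against 12.3 ± 0.419 to 13.4 ± 1.59 CPM in TKO). On the linear scale the difference between the responses had the opposite sign for Cth and Bcar3, 11.4 CPM and 9.20 CPM more gained in TKO.

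Genes with opposite responses were chosen by the size of the smaller response. Among those up in TKO and down in DKO, Rad51c, which repairs DNA by recombination, had 9.52, 9.89 and 9.38 CPM in DKO in regular medium, 5.42, 6.05 and 5.91 in DKO in low glucose, 13.7, 13.0 and 13.4 in TKO in regular medium and 16.9, 15.5 and 16.4 in TKO in low glucose. The groups do not overlap in either line (-0.73 and 0.29, interaction 1.02 ± 0.09). Fam162a, Efhd1 and Mrnip rose in TKO by 0.36, 0.40 and 0.35 and had DKO responses of -0.39, -0.31 and -0.30. The adjusted p of Mrnip was 0.0124. Up in DKO and down in TKO were, beside Rag1 and Cd36, Gpr155, which links lysosomal cholesterol to mTORC1 (0.55 and -0.39), Rassf4 (0.30 and -0.34) and Gtpbp6, a mitochondrial ribosome factor (0.32 and -0.31).

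The falls in DKO alone that the naming rule picks were Shcbp1 (-1.15), Gpsm2 (-1.11) and Depdc1a (-1.11), which act in dividing cells, and Ccna2. The rises in DKO alone by the same rule were Blvrb, Smad3, Scpep1 and St3gal6. Smad3, which carries TGF-beta signals (chr9:63646766-63757994), had 3.09, 3.06 and 3.13 CPM in DKO in regular medium, 7.80, 7.78 and 7.48 in DKO in low glucose, 21.3, 21.5 and 21.4 in TKO in regular medium and 23.2, 23.1 and 21.6 in TKO in low glucose. DKO rose 2.48-fold and TKO gave 0.08 ± 0.05, at a level that was higher than in DKO in both media. Scpep1, a lysosomal peptidase, and St3gal6, a sialyltransferase, rose by 1.08 and 1.04 in DKO, with 0.04 and 0.05 in TKO.

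Responses in TKO alone were smaller. Gem, a small GTPase, and the cadherin Cdh17 rose by 0.76 ± 0.06 and 0.59 ± 0.05 on the log2 scale, with DKO responses of 0.10 ± 0.05 and -0.09 ± 0.05, and Iqcg rose by 0.62 ± 0.09. The falls were Rpp25l (-0.51 ± 0.12), Tnfaip1 (-0.50 ± 0.04), Fam189a1 (-0.49 ± 0.10) and Inafm1 (-0.46 ± 0.09). Tnfaip1, an adaptor for ubiquitin ligase, had 36.9, 38.6 and 36.3 CPM in regular medium and 26.2, 26.2 and 26.8 in low glucose in TKO and 22.02, 23.1 and 21.6 CPM in regular medium and 21.7, 21.3 and 21.4 in low glucose in DKO, so that the TKO groups separate and the DKO groups overlap. The calls of Rpp25l, Fam189a1 and Inafm1 (adjusted p = 0.0448, 0.017 and 0.0123) were lost without the first DKO library in low glucose (Fam189a1, Inafm1), without the first TKO library in regular medium (Fam189a1) or without any 1 of 9 libraries (Rpp25l).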

How the data were processed

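Per the labels, RNA of 3 libraries in each of 4 groups was purified on silica columns and made into strand-specific mRNA libraries. The labels do not say whether libraries of a group are separate cultures, so p-values measure only the spread between these samples. The submitters' processing notes name STAR 2.7.3a, DESeq2 1.22.1 and mm10. The authors deposited unnormalized counts, whole numbers of reads per gene. The deposited TPM table, scaled by the authors for transcript length, served as an alternative. Counter, annotation and strand setting are not given in the sources used here, so reads of a gene and of one overlapping it cannot be separated. 24417 symbols matched RefSeq names.

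Counts were fitted with edgeR 4.0.16 in R 4.3.3 (filterByExpr with minimum 10 and total 15, TMM, 1 mean per group, a spread per gene shared by all groups, quasi-likelihood F-tests, Benjamini-Hochberg adjustment over 11988 genes). Values are mean ± SD of 3 libraries or log2 ± SE. Total counts ran from 22190736 to 56260867 per library. Gene lists come from textbook membership, and members and lists were chosen with earlier results of these data known. Named genes are the 8 largest interactions each way, 5 opposite responders and 4 one-line responders each way (called, at least 5 CPM in each line), the 4 lowest adjusted p per list, and Mcl1, Bax and Bak1; further list members were picked after their values were seen. A few genes that these rules pick are not reported here. Alternatives were other scalings, filters, thresholds, DESeq2 1.42.0, limma 3.58.1 (voom with sample weights, or log2 TPM with a pseudocount of 1), replicate blocks and leaving out libraries. Removing the GC trend and leaving out both TKO libraries numbered 2 were chosen after seeing the data. The fit was tested on simulated data. The authors' line comparisons were not used here.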

Additional observations from a re-analysis of the deposited data

Results flagged for a closer look

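The difference between the lines was itself tested for every gene with edgeR's interaction term, and 3553 genes passed at an adjusted p under 0.05. In 151 of them the responses of DKO and TKO were each called and had opposite signs. The interactions of the named opposite responders were -1.49 for Rag1, -0.89 for Cd36, -0.94 for Gpr155, -0.63 for Gtpbp6 and -0.64 for Rassf4, all up in DKO and down in TKO. Those up in TKO and down in DKO were 1.15 for Zfp462, 1.02 for Rad51c, 0.75 for Fam162a, 0.71 for Efhd1 and 0.65 for Mrnip. Levels of Zfp462 and Efhd1 were lower in TKO than in DKO in both media, and those of Cd36 were higher.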

How the results depend on the processing

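The 26 calls in each of the replication and mitosis lists were made with the 3 other scalings, both replicate blocks, DESeq2, the GC trend removed, without both TKO libraries numbered 2 and without each single library. The axis slope was 0.497 to 0.527 over all settings, and no called gene named in the text changed sign. DESeq2 called 3675 genes and limma on deposited TPM 3705. Counts of classes moved more.

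limma-voom with sample weights called 5636 genes, 3254 higher and 2382 lower, with 175 and 191 past 2-fold, 424 opposite, 476 in TKO alone, and 2217 and 283 same-direction genes larger in DKO and in TKO. At an adjusted p under 0.01 these were 2138, 1361, 777, 48, 61, 56, 100, 756 and 42 in the same order. Deposited TPM gave 39 and 40 past 2-fold and 411 in TKO alone. Genes past 2-fold numbered 56 higher with upper quartile scaling, 57 without a filter, and 12 higher and 23 lower at 5 CPM or more in each line. Without both TKO libraries numbered 2, a setting chosen after seeing the data, 311 genes were opposite, 358 changed in TKO alone and 181 were larger in TKO. The cause of these shifts was not tested.

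Leaving out 1 library gave 2819 to 4079 calls, 1720 to 2433 higher, 928 to 1646 lower, 73 to 109 and 80 to 101 past 2-fold, 100 to 259 opposite, 1065 to 1601 in DKO alone, 143 to 339 in TKO alone, 1074 to 1542 larger in DKO, 56 to 121 larger in TKO and slopes of 0.505 to 0.527. The lowest or highest of these came without 1 of the TKO libraries in regular medium (opposite, TKO alone), the second DKO library in low glucose (lower), and the second or the third DKO library in regular medium (56 larger in TKO).

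Replicate numbers did not pair the samples over the design. Deviations of same-numbered libraries correlated at 0.23, 0.78 and 0.59 in TKO and at -0.02, -0.06 and -0.02 in DKO, and the first TKO library in regular medium correlated best with the third in low glucose. With a replicate block 3763 genes were called. A replicate block within line called 5166, with 331 opposite, 418 in TKO alone, and 2228 and 190 larger in DKO and in TKO. That block with the GC trend removed called 5491, 2735 of them lower, with 355 opposite, 398 in TKO alone, and 2558 and 239 larger in DKO and in TKO.

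Of genes named here or among the 4 first of a list, Bach2, Bcl2l11, Cat, Fam189a1, Fasn, Gstm1, Inafm1, Itga2b, Pnpla2, Psmc4, Rpp25l, Slc16a1 and Syk lost their call in a setting other than the stricter threshold. On the linear CPM scale 90 called genes (2.53%) had the opposite sign. Genes under 1 CPM in a line, such as Mcl1 in TKO, are limited by depth.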

Other observations

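Clock genes and their bHLH repressors answered low glucose unevenly. Of 15 tested genes 5 were called higher in the interaction (33.3%) and 2 lower (13.3%), where 17.6% and 12.1% of all genes tested were. Bhlhe40, a repressor also known as DEC1, had 6.95, 6.58 and 7.07 CPM in DKO in regular medium, 22.1, 22.2 and 21.6 in DKO in low glucose, 8.51, 9.43 and 8.83 in TKO in regular medium and 36.9, 39.6 and 37.3 in TKO in low glucose. It rose in both lines without overlap and further in TKO (interaction 0.41 ± 0.08, adjusted p = 0.0015), while its close relative Bhlhe41 rose further in DKO (2.24 and 1.77, interaction -0.47 ± 0.08). Arntl, the clock activator BMAL1, fell from 167 ± 4.12 to 98.1 ± 0.847 CPM in DKO and from 71.8 ± 2.66 to 60.7 ± 2.22 CPM in TKO. Nr1d1, a repressor of Arntl, fell in DKO (-0.55) and was not called in TKO (0.15).

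Chromatin genes had 10 of 21 members called higher (47.6%) and 1 lower (4.76%), where 17.6% and 12.1% of all genes tested were. With upper quartile scaling 7 were higher and 2 lower. Hmgb2, a DNA-bending protein with many pseudogenes, went from 931 ± 6.56 to 484 ± 3.36 CPM in DKO and from 1456 ± 102 to 1376 ± 114 CPM in TKO, and the maintenance methyltransferase Dnmt1 gave an interaction of 0.76 ± 0.09. Ezh2, the methyltransferase of the Polycomb complex, was not called (0.11 ± 0.06). Immediate early and NF-kB feedback genes had 10 of 26 called lower (38.5%) and 3 higher (11.5%), against 12.1% and 17.6% of all genes tested. Jund and Ier5 rose in DKO alone (0.67 and 0.46), and Tnfaip3, which shuts off NF-kB signalling, fell in DKO (25.8 ± 0.843 to 20.0 ± 0.392 CPM) and rose in TKO (2.34 ± 0.375 to 3.37 ± 0.485 CPM). Cdkn2a, whose transcripts encode p16 and ARF, rose in DKO from 27.0 ± 1.51 to 49.4 ± 3.34 CPM and had 24.2 ± 3.65 to 21.98 ± 2.40 CPM in TKO, while the inhibitor Cdkn1a rose in both lines (0.56 and 0.57) with no call in the interaction. Vim, an intermediate filament gene that these cells express, rose more in DKO (interaction -0.42 ± 0.05).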
